A study of Mus musculus with 43 samples.

Results

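The ISG15 conjugation pathway was followed here through 5 genes in 9 mouse immune cell types, 2 h after interferon alpha and at baseline. The members were Isg15 (the modifier), Uba7, Ube2l6 and Herc6 (the enzymes that attach it) and Usp18 (the protease that removes it). They were taken as the array's probe sets annotated to these symbols, and each symbol matched 1 probe set, giving 5 of the 19753 genes tested. Uba7, Ube2l6, Herc6 and Usp18 each had a probe set of their own. The only probe set for Isg15 is annotated to both Isg15 and Gm9706, a pseudogene in RefSeq. Isg15 lies on chromosome 4 and Gm9706 on chromosome 17, and the probe set's number falls between those of Abcc10 and Slc22a7, genes of chromosome 17. RNA of Isg15 and of Gm9706 cannot be told apart with it, so it is called the Isg15/Gm9706 probe set throughout.

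RNA of sorted cells was hybridised to Affymetrix Mouse Gene 1.0 ST arrays, on which probes spread over a gene are summarised into 1 intensity. All mice were male C57BL/6 animals of 6 weeks, with no genetic change labelled, and the treated ones had received 10000 U of interferon alpha under the skin 2 h before. The labels name no vehicle injection for the baseline mice. Dendritic cells (CD11c+ Flt3+), NKT and NK cells, gamma-delta T cells, and conventional CD4+, CD8+ and regulatory (CD25+ CD4+) T cells each had 2 interferon arrays and 3 baseline arrays. F4/80+ peritoneal macrophages had 1 interferon array and 3 baseline arrays, and Ly6G+ neutrophils had 2 of each. All but the macrophages came from spleen, and the series thus held 17 interferon arrays and 26 baseline arrays. The labels do not say whether arrays of a group came from separate mice, so the p-values measure the spread between arrays, which may be technical.

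ISG15 is a small ubiquitin-like protein that cells attach to other proteins during the response to type I interferon, and that can also be released and act outside the cell. Attachment follows the ubiquitin scheme: the activating enzyme UBA7 (E1) charges ISG15, the conjugating enzyme UBE2L6 (E2) takes it over, and a ligase (E3) passes it to its targets. In mouse that ligase is mainly HERC6, whereas human cells use HERC5. USP18 cleaves ISG15 from its targets and, apart from this activity, binds the interferon receptor subunit IFNAR2 and restrains its signalling. Many genes of this response carry interferon-stimulated response elements in their promoters, through which they are switched on.

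The 250 bases before the transcription start are shown for the members that RefSeq's promoter table (build GRCm38.p6) held, 4 of the 5, because all members share 1 stimulus and their promoters can be set side by side. Usp18 had no entry in that table. Capitals mark matches, on either strand, to the element core GAAA-NN-GAAA (N is any base) or to the shorter pair of interferon regulatory factor contacts AANNGAAA; every GAAA-NN-GAAA match also holds an AANNGAAA match. The sequences are on the strand of the gene, 5′ to 3′, and lie at chr4:156200819-156201068 (minus strand) for Isg15 and, on the plus strand, at chr9:107975317-107975566 for Uba7, chr2:84798578-84798827 for Ube2l6 and chr6:57580742-57580991 for Herc6.
Isg15: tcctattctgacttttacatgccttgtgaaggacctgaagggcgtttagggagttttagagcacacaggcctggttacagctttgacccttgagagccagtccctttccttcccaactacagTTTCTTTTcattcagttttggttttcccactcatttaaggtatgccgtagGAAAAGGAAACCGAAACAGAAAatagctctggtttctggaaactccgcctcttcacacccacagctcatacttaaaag
Uba7: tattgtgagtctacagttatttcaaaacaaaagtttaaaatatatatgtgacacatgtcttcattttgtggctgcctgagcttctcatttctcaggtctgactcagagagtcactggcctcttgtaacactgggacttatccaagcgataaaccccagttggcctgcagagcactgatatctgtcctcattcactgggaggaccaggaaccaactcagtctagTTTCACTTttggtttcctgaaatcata
Ube2l6: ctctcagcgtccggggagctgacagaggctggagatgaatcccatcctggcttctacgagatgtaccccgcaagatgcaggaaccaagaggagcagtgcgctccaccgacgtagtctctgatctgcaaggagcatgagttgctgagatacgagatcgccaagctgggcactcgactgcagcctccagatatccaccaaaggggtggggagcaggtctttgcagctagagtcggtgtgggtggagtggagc
Herc6: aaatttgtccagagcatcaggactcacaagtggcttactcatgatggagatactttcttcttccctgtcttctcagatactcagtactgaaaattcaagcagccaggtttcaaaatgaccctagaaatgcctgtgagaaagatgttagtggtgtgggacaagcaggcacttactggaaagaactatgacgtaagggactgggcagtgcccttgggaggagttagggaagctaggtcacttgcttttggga
In the Isg15 sequence, 3 overlapping matches to GAAA-NN-GAAA ran together from base -78 to base -57, counted back from the start, and a further AANNGAAA match lay on the opposite strand at -128 to -121. The Uba7 sequence held no GAAA-NN-GAAA and 1 AANNGAAA match, on the opposite strand at -27 to -20. The Ube2l6 and Herc6 sequences held neither set of letters in this window. Among 32851 RefSeq promoters read over the same length and both strands, 2.98% held GAAA-NN-GAAA and 21.3% held AANNGAAA. These are matches of letters, not measured binding sites.

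Median intensity per array lay between 104.7 and 125.1, and correlations between arrays of 1 group lay between 0.951 and 0.997. Of the 43 arrays, 41 were most like an array of their own cell type; gamma-delta T cell baseline array 2 and interferon array 1 were the exceptions. Markers of each sorted type had a higher median on its own arrays than on any other array, except the CD4 T cell list, which regulatory T cells share (11.38 to 11.66 log2 units, against 11.28 to 11.93 on CD4+ T cell arrays). B cell markers (4 of 5 measured) were far above their level in other T cells on the gamma-delta T cell arrays, with medians of 9.03 to 11.06 log2 units after interferon and 8.38 to 11.08 at baseline. In neutrophils the same markers differed with treatment, at 6.41 and 6.55 after interferon against 9.82 and 8.92 at baseline. In dendritic cells they were at 7.36 to 7.40 after interferon and 7.75 to 8.57 at baseline, and in NKT cells at 7.76 to 7.99 after interferon and 6.85 to 7.54 at baseline. NK cell markers (5 measured) were at 9.40 to 10.05 after interferon and 8.03 to 9.35 at baseline in NKT cells. In gamma-delta T cells they were at 6.77 on both interferon arrays and spread from 6.07 to 9.51 at baseline. Macrophage markers (5 measured) were at 8.08 to 8.12 after interferon and 7.07 to 8.31 at baseline in NKT cells. In CD4+ T cells they were at 6.16 to 6.19 and 6.03 to 6.10. Neutrophil markers (5 measured) were at 6.01 to 7.63 after interferon and 6.66 to 7.53 at baseline in dendritic cells. In CD4+ T cells these were at 5.16 to 5.55 and 5.05 to 5.36. The part of these marker levels in the changes of the members in NKT, dendritic and gamma-delta T cells was not tested. Tissue labels were at odds for 4 arrays: CD8+ T cell baseline arrays 1 and 2 name blood in 1 label and spleen in the others, and the preparation text of macrophage baseline arrays 1 and 2 names spleen. These arrays were kept under their titles, and results that changed without them are named where they stand.

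Every member was higher after interferon in every cell type. All 45 comparisons (5 members in 9 types) had each interferon array above each baseline array, a pattern that 1.15% of all genes showed across the 9 types. A gene was called raised where limma's Benjamini-Hochberg adjusted p, taken over all genes of the contrast, was under 0.05 and the change reached 1 log2 unit (2-fold). By that rule the Isg15/Gm9706 probe set, Ube2l6, Herc6 and Usp18 were raised in 9 of 9 types, against 0.461% of all genes. Uba7 was raised in 4 types: regulatory T cells, NK cells, dendritic cells and neutrophils. Among T cells, the share of all genes raised was 0.906% (CD4+), 1.01% (CD8+), 1.12% (regulatory) and 1.53% (gamma-delta). It was 1.25% for NK and 2.9% for NKT cells, and 2.44% for neutrophils, 2.35% for dendritic cells and 1.35% for macrophages. In such bulk samples fewer cells of a type and less RNA per cell cannot be told apart.

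Averaged over the 9 cell types with equal weight, the protease had the largest change and the activating enzyme the smallest. Usp18 rose by 3.75 log2 units (SE 0.0893, 13.5-fold, limma adjusted p = 6.75e-27) and ranked 10th of all genes. Herc6 rose by 3.17 (SE 0.117, 8.99-fold, adjusted p = 1.91e-21) and ranked 15th. The Isg15/Gm9706 probe set rose by 2.42 (SE 0.0704, 5.37-fold, adjusted p = 1.82e-24) and ranked 50th. For Ube2l6 the change was 2.25 (SE 0.113, 4.75-fold, adjusted p = 1.2e-17) and the rank 68. For Uba7 it was 1.05 (SE 0.0684, 2.07-fold, adjusted p = 1.72e-14) and the rank 235. Of all genes, 1.26% were raised by this measure. Within cell types Usp18 had the largest change of the 5 in 8 types, the exception being neutrophils, where Herc6 did, and Uba7 had the smallest in all 9. The full order of the means held in 5 types: CD8+ T, gamma-delta T, NK, NKT and dendritic cells. In CD4+ T cells Herc6 came after Isg15/Gm9706 and Ube2l6, in regulatory T cells Ube2l6 came before Herc6 and Isg15/Gm9706, and in macrophages Ube2l6 came before Isg15/Gm9706. Probe sets differ in how steeply they report RNA, so the order is one of measured changes.

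**Figure D1:**
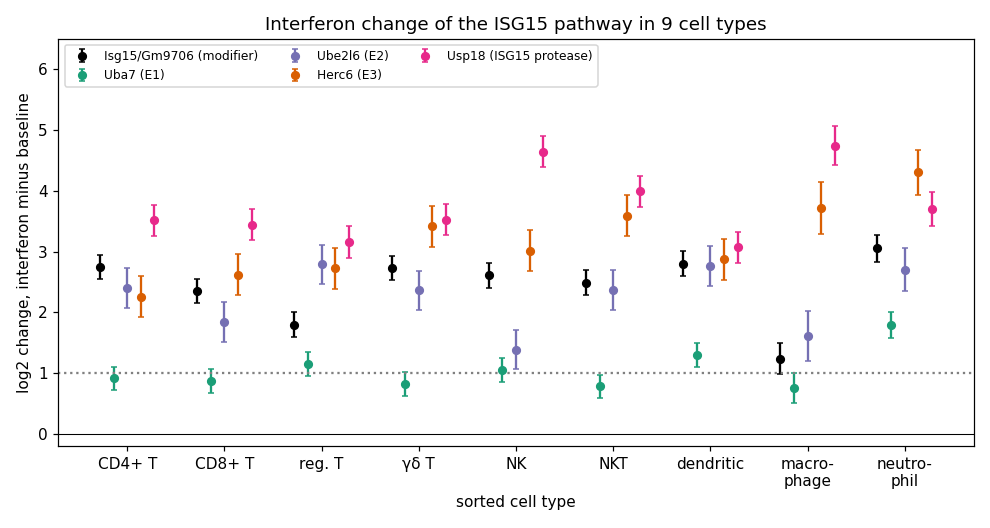
Interferon change of each member, in log2 units (interferon minus baseline, y axis), in each of the 9 cell types (x axis), with bars for the limma standard error and a dotted line at the 2-fold threshold of 1. Usp18 changes lie between 3.07 and 4.74, Herc6 between 2.26 and 4.31, Isg15/Gm9706 between 1.24 and 3.06, Ube2l6 between 1.39 and 2.79 and Uba7 between 0.75 and 1.79.

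The Isg15/Gm9706 probe set, the one annotated to the modifier, had group means that spanned 2.53 log2 units after interferon and 0.75 at baseline. Its baseline means, 5.94 to 6.69, lay under 7 log2 units, the level used to leave out dim genes. Whether a floor of the array narrowed the baseline span was not tested. CD4+ T cells had 8.90 and 9.15 log2 units after interferon, against 6.09, 6.33 and 6.42 at baseline. CD8+ T cells had 8.78 and 8.37 after interferon, against 6.33, 5.99 and 6.36 at baseline. Regulatory T cells had 8.12 and 8.17 after interferon, against 6.24, 6.34 and 6.45 at baseline. Baseline arrays of these 3 types overlapped, and the regulatory T cell arrays stood lowest of the 3 after treatment. Gamma-delta T cells had 8.87 and 9.24 after interferon, against 6.32, 6.62 and 6.03 at baseline. NK cells had 8.51 and 8.59 after interferon, against 5.89, 5.91 and 6.02 at baseline. NKT cells had 8.74 and 9.16 after interferon, against 6.58, 6.43 and 6.37 at baseline. In these 3 innate-like types the states were over 2 log2 units apart on every array. Dendritic cells had 8.73 and 9.22 after interferon, against 6.21, 6.08 and 6.22 at baseline. The single interferon array of macrophages had 7.21, against 6.14, 6.09 and 5.70 at baseline. Neutrophils had 9.32 and 10.17 after interferon, against 6.69 and 6.69 at baseline. Macrophages and neutrophils were the ends of the range: the lowest and the highest interferon levels of the 9 types came from these myeloid cells.

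The changes of the Isg15/Gm9706 probe set ran from 1.24 in macrophages (SE 0.256, limma adjusted p = 0.00282) to 3.06 in neutrophils (SE 0.222, adjusted p = 2.91e-12). Regulatory T cells had the second smallest, 1.80 (SE 0.202, adjusted p = 1.37e-07), and the other 6 types lay between 2.35 and 2.80. The change differed among cell types (moderated F = 6.05, adjusted p = 0.00476), as it did for 4.17% of all genes. In macrophages it was 1.34 below the mean change of 2.57 in the other 8 types (difference -1.34, SE 0.266, adjusted p = 0.0071), a call that 0.106% of all genes shared and that rests on 1 interferon array. Without the 4 arrays at odds with their tissue labels it was -1.04 with adjusted p = 0.362. Against baseline replicate 3 only, with no neutrophils in the fit, it was -0.97 with adjusted p = 0.406. With macrophages left out, the F test gave 3.46 with adjusted p = 0.108. In neutrophils the difference from the other 8 was 0.71 with adjusted p = 0.0805. When single arrays were left out this difference ran from 0.29 to 1.14, the highest value without neutrophil interferon array 1. B cell markers were lower after interferon on the same neutrophil arrays, as given above, and their part in the neutrophil values of this and the other members was not tested.

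Levels of the Isg15/Gm9706 probe set after interferon differed among types (F = 14.59, adjusted p = 5.81e-08), as did those of 57.8% of all genes. Of the 36 pairs of cell types, 10 differed by the call rule after interferon and 0 at baseline, where the 9 group means spanned 0.75 log2 units. These baseline means all lay at the dim levels given above, so the baseline count and order may miss differences near a floor. Over all genes, 9.71% of pairs were called after interferon and 9.59% at baseline. At an adjusted p under 0.05 with no minimum size, 19 pairs differed after interferon and 5 at baseline. The share over all genes by this looser rule is not given here. The widest gap after interferon, macrophages minus neutrophils, was -2.53 (SE 0.271, adjusted p = 4.11e-09). In the order of means after interferon, neutrophils (9.75) stood above gamma-delta T cells (9.05) by 0.70 (adjusted p = 0.015), and regulatory T cells (8.14) above macrophages (7.21) by 0.93 (adjusted p = 0.0123). Between gamma-delta T cells and regulatory T cells the order was CD4+ T cells (9.02), dendritic cells (8.97), NKT cells (8.95), CD8+ T cells (8.57) and NK cells (8.55). No neighbours in this stretch differed at an adjusted p under 0.05. At baseline the order ran from neutrophils (6.69) over NKT, regulatory T, gamma-delta T, CD4+ T, CD8+ T and dendritic cells to macrophages (5.98) and NK cells (5.94). No 2 neighbours there differed at an adjusted p under 0.05.

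**Figure D2:**
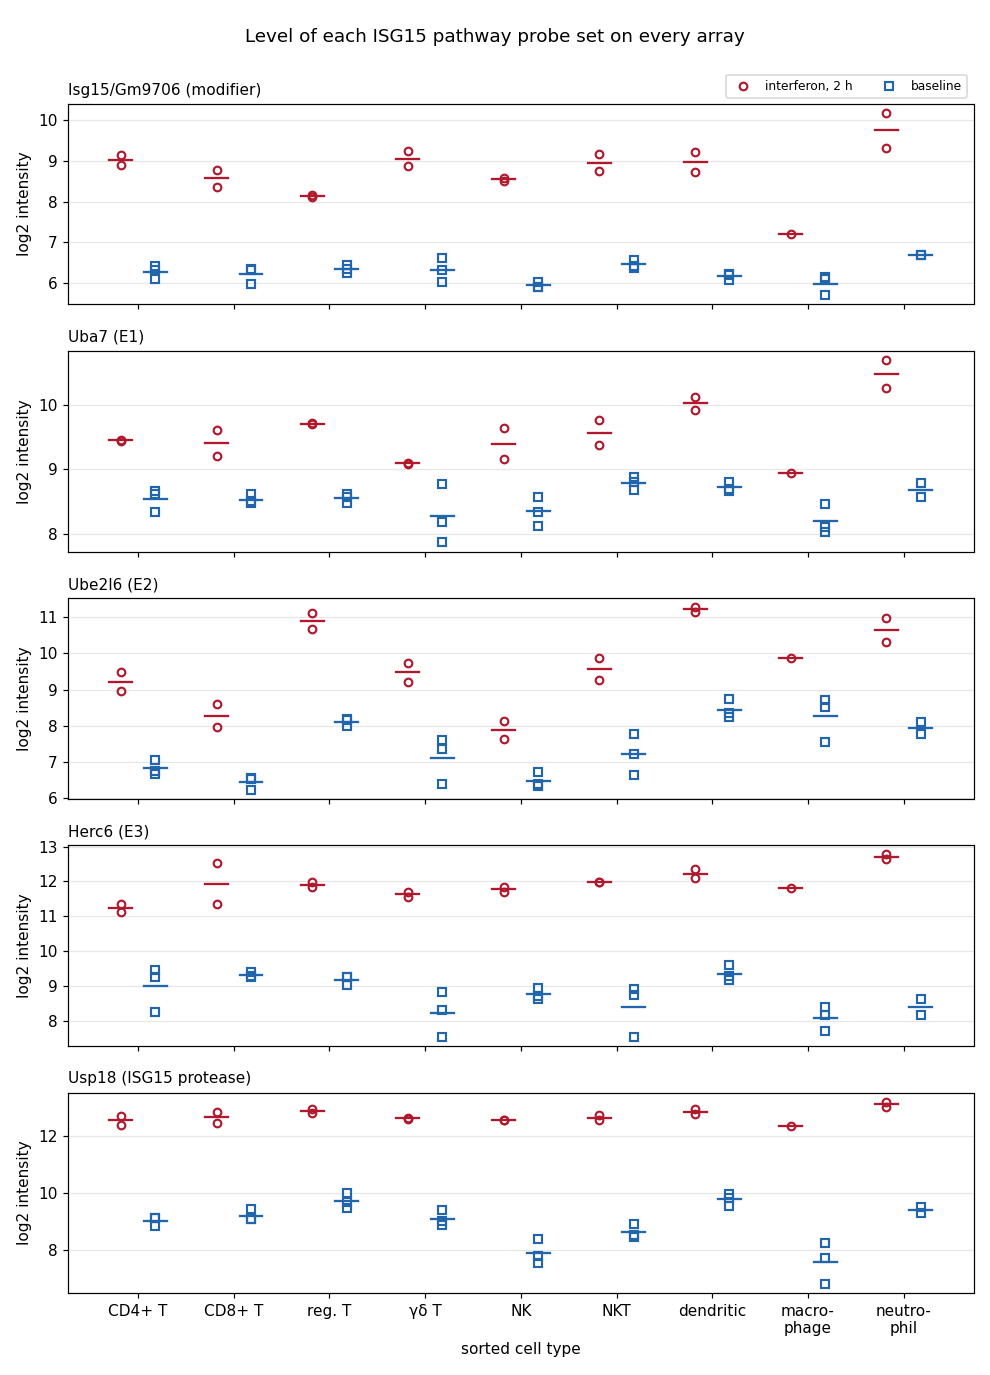
Log2 intensity (y axis) of each member's probe set on every array, in 1 panel per probe set, by cell type (x axis); red circles are interferon arrays, blue squares baseline arrays and bars the group means. In all 5 panels and all 9 types the red circles lie above the blue squares; Usp18 circles fall between 12.34 and 13.20 whatever the type, while Ube2l6 circles fall between 7.62 and 11.27.

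Uba7, the E1 enzyme, had the smallest changes of the 5. CD4+ T cells had 9.46 and 9.44 log2 units after interferon, against 8.67, 8.61 and 8.33 at baseline. For CD8+ T cells the values were 9.21 and 9.60 after interferon, against 8.62, 8.47 and 8.51 at baseline. For regulatory T cells they were 9.70 and 9.72 after interferon, against 8.58, 8.48 and 8.62 at baseline. The states were separate in all 3, in CD4+ and CD8+ T cells by less than 1 log2 unit. Gamma-delta T cells had 9.10 and 9.09 after interferon, against 7.87, 8.78 and 8.19 at baseline. NK cells had 9.64 and 9.16 after interferon, against 8.58, 8.13 and 8.34 at baseline. NKT cells had 9.76 and 9.38 after interferon, against 8.88, 8.80 and 8.68 at baseline. The baseline arrays of gamma-delta T cells were the most scattered of the set. Dendritic cells had 9.92 and 10.13 after interferon, against 8.80, 8.67 and 8.70 at baseline. Macrophages had 8.95 after interferon, against 8.47, 8.10 and 8.02 at baseline. Neutrophils had 10.26 and 10.69 after interferon, against 8.58 and 8.79 at baseline. Neutrophils and dendritic cells reached the highest levels after treatment.

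Uba7 rose by 1.79 in neutrophils (SE 0.215, limma adjusted p = 1.77e-07), 1.30 in dendritic cells (SE 0.197, adjusted p = 1.31e-05), 1.15 in regulatory T cells (SE 0.197, adjusted p = 0.000211) and 1.05 in NK cells (SE 0.197, adjusted p = 0.000626). In CD4+ T, CD8+ T, gamma-delta T and NKT cells its change of 0.78 to 0.91 had an adjusted p under 0.05 but fell short of 2-fold. In macrophages it was 0.75 (SE 0.249, adjusted p = 0.144). The NK cell call was lost on leaving out single arrays: the change was 0.94 without NK cell baseline array 2 and 0.81 without NK cell interferon array 1, both short of 2-fold. CD8+ T cells passed 2-fold, at 1.07, without their interferon array 1, and gamma-delta T cells, also at 1.07, without their baseline array 2; CD4+ T cells did so after quantile normalization, at 1.05. The neutrophil change exceeded the mean of 0.95 in the other 8 types by 0.84 (SE 0.227, adjusted p = 0.0249), less than 2-fold. When single arrays were left out this difference ran from 0.62 to 1.06, the highest value without neutrophil interferon array 1. The F test over all types gave 2.48 with adjusted p = 0.28. Without neutrophils the mean change over the other 8 types was 0.95, short of 2-fold. After interferon 6 of 36 pairs of types differed, all but 1 of them with neutrophils as the higher member (macrophages minus neutrophils -1.53, SE 0.264, adjusted p = 2.43e-05). The other was dendritic cells minus macrophages, at 1.07 (adjusted p = 0.00324). The order after interferon was neutrophils (10.48), dendritic cells (10.02), regulatory T (9.71), NKT (9.57), CD4+ T (9.45), CD8+ T (9.41), NK (9.40), gamma-delta T cells (9.09) and macrophages (8.95). No 2 neighbours in it differed at an adjusted p under 0.05. At baseline 0 pairs were called, 2 pairs had an adjusted p under 0.05, and the means ran from 8.79 in NKT cells to 8.20 in macrophages. The shares of pairs called over all genes were 9.71% after interferon and 9.59% at baseline.

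Ube2l6, the E2 enzyme, differed widely among cell types in both states. CD4+ T cells had 8.96 and 9.48 log2 units after interferon, against 6.67, 6.75 and 7.05 at baseline. CD8+ T cells had 7.97 and 8.59 after interferon, against 6.52, 6.55 and 6.24 at baseline. Regulatory T cells had 10.68 and 11.11 after interferon, against 8.15, 7.98 and 8.18 at baseline. Regulatory T cells at baseline thus overlapped CD8+ T cells after interferon. Gamma-delta T cells had 9.74 and 9.21 after interferon, against 7.35, 6.38 and 7.61 at baseline. NK cells had 7.62 and 8.13 after interferon, against 6.33, 6.40 and 6.74 at baseline. NKT cells had 9.87 and 9.28 after interferon, against 7.78, 6.64 and 7.21 at baseline. Baseline arrays of gamma-delta T and NKT cells spread over more than 1 log2 unit, and NK cells were low in both states. Dendritic cells had 11.27 and 11.15 after interferon, against 8.36, 8.26 and 8.74 at baseline. Macrophages had 9.88 after interferon, against 7.55, 8.52 and 8.71 at baseline. Neutrophils had 10.31 and 10.98 after interferon, against 7.78 and 8.11 at baseline. The 3 myeloid types and regulatory T cells had the highest means in both states, but were not set apart as a group. NKT cell arrays reached 9.87 after interferon, beside 9.88 in macrophages, and 7.78 at baseline, above the lowest macrophage array at 7.55.

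After interferon the Ube2l6 means ran from dendritic cells (11.21), regulatory T cells (10.89), neutrophils (10.65), macrophages (9.88), NKT (9.57), gamma-delta T (9.48) and CD4+ T cells (9.22) to CD8+ T cells (8.28) and NK cells (7.87). No 2 neighbours in this order differed at an adjusted p under 0.05, but 23 of the 36 pairs were called. The shares of pairs called over all genes were 9.71% after interferon and 9.59% at baseline. NK cells minus dendritic cells was -3.34 (SE 0.356, limma adjusted p = 3.17e-09), and regulatory T cells minus NK cells was 3.02 (adjusted p = 6.11e-08). At baseline 16 of 36 pairs differed, and the order ran from dendritic cells (8.45), macrophages (8.26), regulatory T cells (8.11) and neutrophils (7.95) over NKT (7.21), gamma-delta T (7.12) and CD4+ T cells (6.82) to NK (6.49) and CD8+ T cells (6.44). CD8+ T cells minus dendritic cells was -2.01 (SE 0.291, adjusted p = 1.01e-06). The F tests among types gave 20.21 after interferon (adjusted p = 1.28e-09) and 14.01 at baseline (adjusted p = 6.82e-08), results that 57.8% and 56.4% of all genes shared.

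Of the interferon changes of Ube2l6, the largest were 2.79 in regulatory T cells (SE 0.325, adjusted p = 2.7e-07) and 2.76 in dendritic cells (SE 0.325, adjusted p = 1.24e-07). The smallest were 1.39 in NK cells (SE 0.325, adjusted p = 0.00839), 1.62 in macrophages (SE 0.411, adjusted p = 0.0237) and 1.85 in CD8+ T cells (SE 0.325, adjusted p = 0.000374). The F test of a difference among types gave 2.28 with adjusted p = 0.339, and the NK cell change minus the other 8 was -0.97 with adjusted p = 0.38. The macrophage call was lost without macrophage baseline array 1 (1.26, adjusted p = 0.103), without the 4 arrays at odds with their tissue labels (1.17, adjusted p = 0.383) and with a term for the preparation wording (1.42, adjusted p = 0.0672). The NK cell call was lost without NK cell interferon array 2 (1.14, adjusted p = 0.236).

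Herc6, the E3 ligase, averaged 11.23 log2 units or more in every type after interferon and 9.35 or less at baseline. CD4+ T cells had 11.11 and 11.36 log2 units after interferon, against 9.45, 9.25 and 8.23 at baseline. CD8+ T cells had 11.34 and 12.52 after interferon, against 9.28, 9.25 and 9.40 at baseline. Regulatory T cells had 11.84 and 11.97 after interferon, against 9.25, 9.03 and 9.25 at baseline. CD4+ T cell baseline array 3 was about 1 unit below its fellows, and the 2 interferon arrays of CD8+ T cells were over 1 unit apart. Gamma-delta T cells had 11.70 and 11.56 after interferon, against 7.53, 8.81 and 8.30 at baseline. NK cells had 11.69 and 11.85 after interferon, against 8.93, 8.62 and 8.72 at baseline. NKT cells had 11.98 and 11.99 after interferon, against 7.54, 8.75 and 8.90 at baseline. Baseline array 1 was the low one in gamma-delta T and in NKT cells. Dendritic cells had 12.10 and 12.34 after interferon, against 9.60, 9.17 and 9.29 at baseline. Macrophages had 11.80 after interferon, against 7.70, 8.16 and 8.39 at baseline. Neutrophils had 12.64 and 12.77 after interferon, against 8.17 and 8.62 at baseline. Neutrophils were thus highest after interferon and in the lower part of the order at baseline.

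The largest Herc6 changes were 4.31 in neutrophils (SE 0.369, limma adjusted p = 1.24e-10), 3.72 in macrophages (SE 0.427, adjusted p = 2.2e-07), 3.59 in NKT cells (SE 0.337, adjusted p = 1.2e-09) and 3.41 in gamma-delta T cells (SE 0.337, adjusted p = 5.77e-09). CD4+ T cells had the smallest, 2.26 (SE 0.337, adjusted p = 2.89e-05), and the other 4 types lay between 2.62 and 3.01. Against baseline replicate 3 only, with no neutrophils in the fit, the Herc6 changes ran from 2.53 in CD8+ T cells to 3.41 in macrophages. Over the alternative fits the F test of a difference among types ran from 0.447 to 5.62, and from 2.44 to 4.53 when single arrays were left out. In the fit on all arrays it gave 3.22 with adjusted p = 0.126. It passed without CD4+ T cell baseline array 3 (4.53, adjusted p = 0.0243), without CD8+ T cell interferon array 2 (4.31, adjusted p = 0.0353), after quantile normalization (4.25, adjusted p = 0.0269) and with array weights (5.62, adjusted p = 0.00217). Neutrophils minus the other 8 was 1.28 (SE 0.39, adjusted p = 0.0555). That difference was called, at 1.24 to 1.35 with adjusted p from 0.0151 to 0.0475, when any 1 of 6 arrays was left out: gamma-delta T cell baseline 1 or 2, NKT cell baseline 1, CD4+ T cell baseline 3, macrophage baseline 1 or CD8+ T cell interferon 2. It was also called with dim genes left out (1.28, adjusted p = 0.0428), after quantile normalization (1.43, adjusted p = 0.0115) and with array weights (1.42, adjusted p = 0.0108). With array weights, which ran from 0.162 to 7.05, CD4+ T cells minus the other 8, at -1.26 (adjusted p = 0.0158), was called as well. Over the alternative fits this CD4+ T cell difference ran from -1.26 to 0.0026. Against baseline replicate 3 only, the CD4+ T cell change was 3.00. After interferon 2 of 36 pairs differed, where 9.71% of pairs did over all genes. They were CD4+ T cells minus neutrophils at -1.47 (SE 0.369, adjusted p = 0.00181) and gamma-delta T cells minus neutrophils at -1.07 (SE 0.369, adjusted p = 0.0251). Only 1 pair was called without gamma-delta T cell interferon array 1 or 2 or neutrophil interferon array 1 or 2. At baseline 5 pairs differed, where 9.59% of pairs did over all genes. Dendritic, CD8+ T and regulatory T cells stood above macrophages, and dendritic and CD8+ T cells above gamma-delta T cells, by 1.09 to 1.26. Leaving out gamma-delta T cell baseline array 1 left 3 such pairs, leaving out NKT cell baseline array 3 gave 8, and leaving out the 4 arrays at odds with their labels left 1. Baseline means ran from 9.35 in dendritic cells to 8.08 in macrophages, and interferon means from 12.70 in neutrophils to 11.23 in CD4+ T cells. In neither state did 2 neighbours differ at an adjusted p under 0.05.

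Usp18, the protease, had group means that spanned 0.77 log2 units after interferon and 2.18 at baseline. CD4+ T cells had 12.40 and 12.68 log2 units after interferon, against 8.84, 9.11 and 9.11 at baseline. CD8+ T cells had 12.46 and 12.83 after interferon, against 9.07, 9.08 and 9.46 at baseline. Regulatory T cells had 12.81 and 12.94 after interferon, against 9.49, 9.68 and 9.99 at baseline. Regulatory T cells began above both conventional T cell types, and after interferon their arrays overlapped those of CD8+ T cells. Gamma-delta T cells had 12.59 and 12.64 after interferon, against 9.005, 8.88 and 9.39 at baseline. NK cells had 12.54 and 12.57 after interferon, against 7.56, 7.80 and 8.40 at baseline. NKT cells had 12.54 and 12.74 after interferon, against 8.54, 8.47 and 8.93 at baseline. NK cells began lowest of the 3 and ended beside the other two. Dendritic cells had 12.77 and 12.93 after interferon, against 9.82, 9.54 and 9.98 at baseline. Macrophages had 12.34 after interferon, against 6.82, 7.73 and 8.24 at baseline. Neutrophils had 13.01 and 13.20 after interferon, against 9.30 and 9.50 at baseline. The macrophage baseline arrays had the lowest mean and the widest scatter.

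At baseline the Usp18 means ran from dendritic cells (9.78), regulatory T cells (9.72), neutrophils (9.40), CD8+ T (9.20), gamma-delta T (9.09), CD4+ T (9.02) and NKT cells (8.65) to NK cells (7.92) and macrophages (7.60), a span of 2.18 log2 units. Of the 36 pairs, 15 differed, where 9.59% of pairs did over all genes. Dendritic cells minus macrophages was 2.18 (SE 0.23, limma adjusted p = 1.45e-09), regulatory T cells minus macrophages was 2.12 (adjusted p = 2.01e-09) and NK cells minus dendritic cells was -1.86 (adjusted p = 4.92e-08). Among neighbours in the order, NKT cells stood above NK cells by 0.73 (adjusted p = 0.0216) and no others differed at an adjusted p under 0.05. After interferon the means lay between 12.34 in macrophages and 13.11 in neutrophils, a span of 0.77, and 0 of 36 pairs differed by limma, also with no minimum size. With the minimum size, 9.71% of pairs were called over all genes. The F test among types gave 21.25 at baseline (adjusted p = 4.8e-10) and 1.08 after interferon (adjusted p = 0.434), where 56.4% and 57.8% of all genes passed. Whether the response of this probe set flattens at high RNA levels was not tested.

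**Figure D3:**
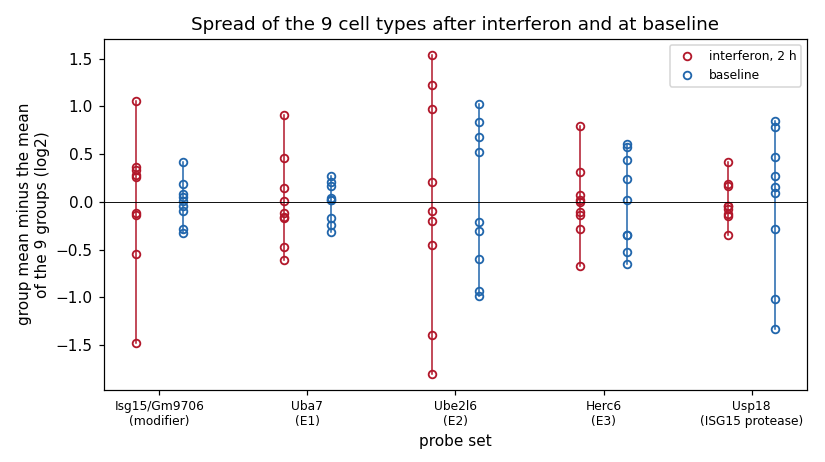
Group means of the 9 cell types minus their own mean (log2 units, y axis) for each probe set (x axis), after interferon (red, left) and at baseline (blue, right). The Usp18 means span 0.77 after interferon and 2.18 at baseline, whereas those of Ube2l6 span 3.34 and 2.01 and those of Isg15/Gm9706 span 2.53 and 0.75.

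Usp18 changes differed among types in the fit on all arrays (F = 4.69, adjusted p = 0.0221), but the test did not pass against baseline replicate 3 only (F = 3.74). They were largest in macrophages at 4.74 (SE 0.325, adjusted p = 1.92e-12) and NK cells at 4.64 (SE 0.257, adjusted p = 7.34e-15), the types with the lowest baseline levels. They were smallest in dendritic cells at 3.07 (SE 0.257, adjusted p = 6.9e-11) and regulatory T cells at 3.16 (SE 0.257, adjusted p = 8.47e-11), the types with the highest. A change is measured against the baseline level, so the order of changes and that of baseline levels are not separate observations. No single type was called against the other 8: the difference was 1.11 in macrophages (SE 0.337, adjusted p = 0.235) and 1.00 in NK cells (SE 0.274, adjusted p = 0.133). Both were called with a term for the preparation wording, stained arrays against all others, at 1.13 (adjusted p = 0.0219) and 1.02 (adjusted p = 0.0136). The macrophage difference was also called without macrophage baseline array 3 (1.43, adjusted p = 0.019) and after quantile normalization (1.45, adjusted p = 0.0269). Over the alternative fits it ran from 0.51 to 1.45, and from 0.72 to 1.43 when single arrays were left out. Without the 4 arrays at odds with their tissue labels, the macrophage change was 4.10, below the 4.64 of NK cells. The NK cell difference was also called without macrophage baseline array 1 (1.04, adjusted p = 0.0213), without the 4 arrays at odds with their tissue labels (1.11, adjusted p = 0.0205) and with array weights (1.18, adjusted p = 0.00271). The F test missed 0.05 without NK cell interferon array 1 (3.95, adjusted p = 0.0587), NK cell interferon array 2 (3.88, adjusted p = 0.0659) or dendritic cell interferon array 1 (4.14, adjusted p = 0.0529).

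The baseline arrays carried 2 preparation wordings, and Usp18 differed between replicate 3 and the others. Replicates 1 and 2 of every type were labelled as stained after tissue dissociation, and replicate 3, in all spleen types that had one, as digested; macrophage replicate 3 had no wording. Usp18 was highest on replicate 3 in 8 of 8 types, with a mean of 9.19 on replicate 3 and 8.71 on replicates 1 and 2. The difference was 0.47 log2 units (SE 0.0888, limma adjusted p = 0.00881; 0.14 to 0.96 by type), a comparison chosen after the values were seen; 0.81% of all genes were higher on replicate 3 by adjusted p alone and 0.284% lower. The same difference was 0.30 for Ube2l6 (adjusted p = 0.371), 0.04 for Herc6 (adjusted p = 0.933), -0.03 for Isg15/Gm9706 (adjusted p = 0.921) and -0.11 for Uba7 (adjusted p = 0.663). The interferon arrays of CD8+ T, regulatory T, gamma-delta T and dendritic cells and of neutrophils carried the digestion wording, those of CD4+ T, NK and NKT cells another wording that no baseline array had, and that of macrophages none. For NKT, NK and CD4+ T cells and for neutrophils, whose interferon arrays share no wording with their baseline arrays, wording and treatment cannot be told apart. The wording term used here set stained arrays against all others together. It does not separate digestion from the other wording or from none. Against baseline replicate 3 alone, the mean Usp18 change over 8 types was 3.45 (adjusted p = 2.03e-19), and with a wording term over 9 types it was 3.42 (adjusted p = 6.45e-24).

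Across arrays the members followed different genes at baseline than over both states. These are Pearson correlations that describe the arrays, which share cell types, and no p is given. Over the 26 baseline arrays, the 3 genes closest to Usp18 were Zc3h12d (r = 0.857), Irf9 (0.842) and Btla (0.831); IRF9 is a DNA-binding factor of the interferon response. Those closest to Ube2l6 were Cd81 (0.885), Cd80 (0.879), a costimulatory ligand of antigen-presenting cells, and Atp6v0a1 (0.866). Those closest to Herc6 were Cyld (0.928), a deubiquitinase, Cstf3 (0.911) and Mycbp2 (0.909). For Uba7 they were Plcb2, Pan2 and Ambra1 (0.760 to 0.811), and for the Isg15/Gm9706 probe set Aacs, Rab11fip4 and Tldc2 (0.731 to 0.761). The baseline values of the Isg15/Gm9706 probe set were dim, as given above. Between members the baseline correlations lay between -0.140 (Ube2l6 and Herc6) and 0.536 (Isg15/Gm9706 and Uba7).

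Over all 43 arrays, whose values also carry the difference between treatment and baseline, the closest genes were others. Herc6 was closest to Parp14 (r = 0.986), Parp9 (0.969) and Eif2ak2 (0.969), the gene of the double-stranded RNA sensor PKR. Usp18 was closest to Parp9 (0.978), Ifit3 (0.975) and Ifit1 (0.968), and the Isg15/Gm9706 probe set to Ifit3b (0.969), Oasl1 (0.950) and Ifi35 (0.940). Uba7 was closest to Stat2 (0.927), Tor1aip1 (0.907) and Slc25a22 (0.903), and Ube2l6 to Parp12 (0.872), Znfx1 (0.871) and Ifih1 (0.860), the gene of the RNA sensor MDA5. Between members these correlations lay between 0.736 (Isg15/Gm9706 and Ube2l6) and 0.950 (Herc6 and Usp18).

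Most relatives of the members were called in no type. Of 15 other enzymes reported to handle ISG15 or related to HERC6, all measured, 1 to 3 were raised in each cell type and 0 lowered. Of all genes, 0.906% to 2.9% were raised in a type. By the mean over types 2 of the 15 were raised, against 1.26% of all genes. Their median mean change was -0.06 log2 units, against -0.01 over all genes. Trim25, a ubiquitin ligase that acts with the RNA sensor RIG-I and is itself modified by ISG15, was raised in 9 types, with a mean change of 1.58 (SE 0.0734, limma adjusted p = 1.24e-18) and a range of 1.29 to 1.85. Herc3, a small HERC ligase related to Herc6, was raised in 7 types with a mean change of 1.10 (SE 0.107, adjusted p = 4.45e-10). The Herc3 difference was 0.69 in CD4+ T cells (adjusted p = 0.347) and 0.27 in macrophages (adjusted p = 0.991). Herc1, a giant HERC protein, was raised in 1 type, neutrophils, at 1.34 (adjusted p = 0.0187). The deubiquitinases of the list, Usp2, Usp5, Usp13, Usp14, Usp16, Usp21 and Usp24, were called in 0 types, with mean changes of -0.28 to 0.14.

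None of 6 measured E1 genes of other modifiers (of 9 listed) was called in any type, with a median mean change of -0.09. Uba6, the second E1 of ubiquitin, had a mean change of -0.03 (SE 0.124, adjusted p = 0.892), beside 1.05 for Uba7. Of 19 measured E2 genes (of 21), Ube2v2 was raised in gamma-delta T cells at 1.09 (adjusted p = 0.034) and Ube2z lowered in neutrophils at -1.01 (adjusted p = 0.0139), with no other call and a median of -0.11. Ube2l3, the closest relative of Ube2l6 and a ubiquitin E2, had a mean change of -0.10 (SE 0.0617, adjusted p = 0.266), beside 2.25 for Ube2l6. Of 8 measured genes of other ubiquitin-like modifiers (of 13), Nedd8 was lowered in gamma-delta T cells at -1.07 (adjusted p = 0.0116) and no other was called, with a median of 0.005; 0.683% of all genes were lowered in gamma-delta T cells and 2.85% in neutrophils. The B cell marker levels of gamma-delta T cell arrays given above vary over the same arrays, and their part in these calls was not tested.

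**Figure D4:**
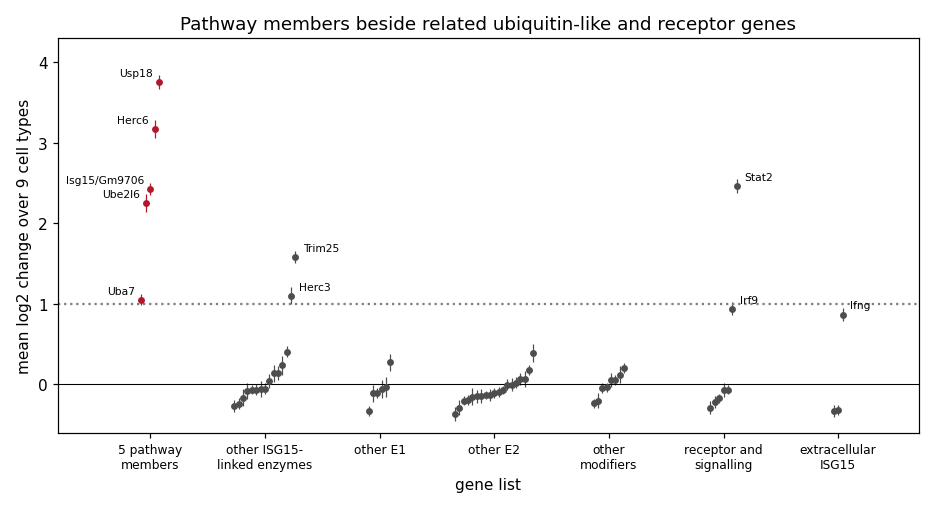
Mean interferon change over the 9 cell types (log2 units) of the 5 members and of each measured gene in the 6 lists, with bars for the limma standard error. The members, Trim25, Herc3 and Stat2 lie above 1, and the other E1, E2 and modifier genes lie between -0.37 and 0.39.

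Of 7 measured genes of the interferon receptor pathway (of 8), on which USP18 acts, Stat2 was raised in 9 types with a mean change of 2.46 (SE 0.0829, adjusted p = 1.24e-22) and a range of 2.04 to 3.31. Irf9 was raised in CD4+ T cells at 1.07, regulatory T cells at 1.00 and NK cells at 1.32. The receptor gene Ifnar1 was lowered in neutrophils at -1.34 (adjusted p = 6.22e-05), where the B cell markers were also lower. Ifnar2, the subunit that USP18 binds, had differences of -0.67 to 0.14 and was called in 0 types, as were Jak1, Tyk2 and Skp2. Of 3 genes listed for the extracellular action of ISG15, which signals through the integrin LFA-1 and brings about interferon gamma release, Itgal and Itgb2 were called in 0 types, and Ifng was raised in 5, with changes of 1.68 in gamma-delta T cells, 1.58 in NKT cells, 1.36 in NK cells, 1.34 in CD8+ and 1.08 in CD4+ T cells. On the NKT cell arrays NK cell markers were also higher after interferon, and on the gamma-delta T cell baseline arrays they were scattered, as given above; their part in the Ifng changes was not tested. Median mean changes of these lists were -0.07 and -0.32.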

How the data were processed

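Intensities per probe set, on a linear scale, were deposited by the authors; RMA and Affymetrix Power Tools were used per the submitters' processing notes. Neither tool versions nor a genome build are given in the sources used here. RMA corrects background, normalizes arrays to 1 distribution and summarises probes, so levels are relative within a probe set, and levels of different probe sets were not compared. No detection calls were used.

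Of 24922 probe sets, 21425 had 1 gene symbol, 1399 several and 2098 none. The brightest probe set per symbol was kept, and the Isg15/Gm9706 probe set was added, giving 19753 genes. Log2 values were fitted with limma 3.58.1 (R 4.3.3) in 1 model of 18 groups (25 residual degrees of freedom), which lets the single macrophage interferon array be tested as if it varied like the other groups. The number of arrays limits the precision. P-values were adjusted by Benjamini-Hochberg over all genes within a contrast; calls needed adjusted p under 0.05 and 2-fold. The fit was tested on simulated data. Figures used matplotlib 3.10.9.

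Members and lists were chosen with earlier results of these data known. Named were all members, the 3 genes closest to each, list genes called in any type, and counterparts of members. Alternatives were: each type fitted alone, a replicate block, a term for preparation wording, baseline replicate 3 only, a filter on dim genes, quantile normalization, a trended robust variance, array weights, means of probe sets, and leaving out each array. The wording term set stained arrays against all others. Added after the data were seen were fits without the 4 arrays with conflicting tissue labels, without neutrophils and without macrophages.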

Additional observations from a re-analysis of the deposited data

Results flagged for a closer look

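Results stand here because a change differed between cell types by its own test. The interferon change of the Isg15/Gm9706 probe set differed among the 9 types (F = 6.05, limma adjusted p = 0.00476), and in macrophages, with 1 interferon array, it was -1.34 against the mean of the other 8 (adjusted p = 0.0071); against baseline replicate 3 only it was -0.97 (adjusted p = 0.406). The change of Usp18 differed among types (F = 4.69, adjusted p = 0.0221). That test did not pass against baseline replicate 3 only (F = 3.74), nor without NK cell interferon array 1 or 2 or dendritic cell interferon array 1. The change of Uba7 in neutrophils exceeded that of the other 8 by 0.84 (adjusted p = 0.0249), less than 2-fold. When single arrays were left out the excess ran from 0.62 to 1.06. No group of 4 or more arrays existed, so single arrays were not screened as outliers.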

How the results depend on the processing

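No result changed its direction where the fit on all arrays or the alternative gave a call. In the fit on all arrays, the interferon change differed among types for 4.17% of all genes and the baseline level for 56.4%. Shares of all genes under the alternatives are not given here. Members whose interferon change differs among types numbered 2; the count was 0 with baseline replicate 3 only, 5 with array weights, 1 with macrophages left out, and 1 to 3 when single arrays were left out (1 without NK cell interferon array 1 or 2 or dendritic cell interferon array 1). The mean change of Uba7 was 0.95 without neutrophils, short of 2-fold. Baseline pairs called for Herc6 numbered 5, and 3 after quantile normalization, 1 without the 4 arrays with conflicting tissue labels, and 3 to 8 when single arrays were left out. Interferon pairs numbered 2 for Herc6, with 8 after quantile normalization and 1 to 3 on leaving out arrays, and 6 for Uba7, with 3 (without neutrophil interferon array 2) to 7. Baseline levels differed among types for 5 members, and for 3 to 5 on leaving out arrays (3 without neutrophil baseline array 2, NK cell baseline array 2, NKT cell baseline array 1 or macrophage baseline array 3). Against baseline replicate 3 only, both F tests that had passed and 4 calls in single types were lost: Ube2l6 in macrophages (1.17, adjusted p = 0.374) and in NK cells (1.14, adjusted p = 0.196), Uba7 in regulatory T cells (1.09, adjusted p = 0.0694), and the difference of Isg15/Gm9706 in macrophages from the other types (-0.97, adjusted p = 0.406). With macrophages fitted alone, the Isg15/Gm9706 change had adjusted p = 0.0566. With array weights all 5 F tests passed, and Uba7 in NK cells was 0.88. The cause was not tested.

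Deviations of same-numbered arrays from their group means correlated at -0.301 to 0.347 over 16 pairs, 7 of them over 0.1. Both values of a type were over 0.1 in NK cells, NKT cells and neutrophils, and both were negative in gamma-delta T cells. With 2 interferon arrays in a group, the deviations of 1 mirror those of the other, so these values cannot tell whether replicate numbers pair the arrays. With the replicate number as a block, the mean changes were 2.42 for Isg15/Gm9706, 1.02 for Uba7, 2.34 for Ube2l6, 3.19 for Herc6 and 3.90 for Usp18, and the differences of Usp18 in NK cells (1.01, adjusted p = 0.00687) and macrophages (1.21, adjusted p = 0.00561) from the other types were called. Fits on baseline replicate 3 alone gave no baseline pairs and no neutrophil values, and leaving out the single macrophage interferon array gave no value for means over 9 types.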
